A study of Mus musculus with 6 samples.

Results

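The mitochondrial ribosomal protein genes are the nuclear genes whose symbols begin with Mrpl or Mrps and a digit, and 78 of the 21951 protein-coding genes of the GENCODE M21 annotation met that rule. Their promoters were read in 6 ATACseq libraries of GL261-GFP cells, a mouse glioma line that stably carries the pEGFP-N1 plasmid and was grown in DMEM with 10% FBS. The cells were kept at 21% O2, or for 16 h at 1% or <0.1% O2 with 5% CO2, with 2 libraries per oxygen level, and all of them were fixed with formaldehyde before lysis. In ATACseq a transposase inserts adapters into accessible DNA, so fragments pile up over open chromatin. Each library came as a list of peaks called on its own, and for each peak the list gave a fold over the local background and a p-value, from which the number of fragments piled up at the summit was recovered. Peaks over 200 bp shared by both replicates of a condition and merged across conditions gave 41308 consensus peaks, of which 28432 were present in all 6 libraries.

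The mitochondrial ribosome translates the few proteins encoded by mitochondrial DNA, which are subunits of the respiratory chain and of ATP synthase. Its own proteins are all encoded in the nucleus, made in the cytosol and imported. Some have counterparts in the bacterial ribosome and others are found only in mitochondria. Their promoters are mostly GC-rich and lack a TATA box, and NRF1, GABP (an ETS factor) and YY1 are known as regulators of nuclear genes for mitochondrial proteins.

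Promoter windows from RefSeq on GRCm38.p6, from 250 bases before to 50 after a start, were at hand for 69 of the 78 genes, as 75 windows. None was found for Mrpl13, Mrpl15, Mrpl19, Mrpl38, Mrpl4, Mrpl54, Mrps28, Mrps34 and Mrps35. The 6 windows printed here belong to the gene with the largest fall (Mrps10, chr17:47368947-47369246, plus strand), to further genes whose peaks fell at <0.1% O2 (Mrpl27, chr11:94653541-94653840, plus strand, and Mrpl36, chr13:73330759-73331058, plus strand), to the genes with the highest positive changes there (Mrpl45, chr11:97315466-97315765, plus strand, and Mrps12, chr7:28741772-28742071, minus strand), and to one of the highest peaks, which was not called (Mrpl17, chr7:105811038-105811337, minus strand). Each reads 5′ to 3′ along its gene's strand, and capitals mark matches on either strand to the NRF1 core CGCATGCG, the ETS motif CCGGAAGT or the YY1 motif AAGATGGC, the last 2 also in reverse complement.
Mrps10: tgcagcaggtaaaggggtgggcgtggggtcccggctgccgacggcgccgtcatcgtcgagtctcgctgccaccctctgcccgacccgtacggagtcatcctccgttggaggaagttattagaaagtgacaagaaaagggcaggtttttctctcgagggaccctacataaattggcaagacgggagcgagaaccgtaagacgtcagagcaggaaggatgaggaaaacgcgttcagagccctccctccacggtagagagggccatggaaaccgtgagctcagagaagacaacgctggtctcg
Mrpl27: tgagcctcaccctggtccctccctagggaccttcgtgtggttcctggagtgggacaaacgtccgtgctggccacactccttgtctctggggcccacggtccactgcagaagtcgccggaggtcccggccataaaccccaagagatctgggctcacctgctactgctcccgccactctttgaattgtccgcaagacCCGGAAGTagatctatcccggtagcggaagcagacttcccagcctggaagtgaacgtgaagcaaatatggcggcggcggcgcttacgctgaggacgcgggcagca
Mrpl36: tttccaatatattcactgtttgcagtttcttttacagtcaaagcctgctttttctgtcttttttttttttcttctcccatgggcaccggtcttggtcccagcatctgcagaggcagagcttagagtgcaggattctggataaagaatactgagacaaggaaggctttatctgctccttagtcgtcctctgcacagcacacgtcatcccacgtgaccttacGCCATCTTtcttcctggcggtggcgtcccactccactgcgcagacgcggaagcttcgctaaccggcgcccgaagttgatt
Mrpl45: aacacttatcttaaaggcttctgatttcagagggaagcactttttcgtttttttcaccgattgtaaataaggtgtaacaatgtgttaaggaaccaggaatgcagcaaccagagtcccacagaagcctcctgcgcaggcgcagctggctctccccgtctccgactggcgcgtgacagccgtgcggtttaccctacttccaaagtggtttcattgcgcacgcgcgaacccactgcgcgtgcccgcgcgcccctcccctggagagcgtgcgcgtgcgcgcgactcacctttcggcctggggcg
Mrps12: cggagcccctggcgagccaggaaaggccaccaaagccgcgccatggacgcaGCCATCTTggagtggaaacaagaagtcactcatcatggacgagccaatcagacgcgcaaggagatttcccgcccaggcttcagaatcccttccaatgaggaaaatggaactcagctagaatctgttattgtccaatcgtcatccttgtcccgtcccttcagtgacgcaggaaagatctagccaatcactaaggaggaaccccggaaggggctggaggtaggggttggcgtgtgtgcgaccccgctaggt
Mrpl17: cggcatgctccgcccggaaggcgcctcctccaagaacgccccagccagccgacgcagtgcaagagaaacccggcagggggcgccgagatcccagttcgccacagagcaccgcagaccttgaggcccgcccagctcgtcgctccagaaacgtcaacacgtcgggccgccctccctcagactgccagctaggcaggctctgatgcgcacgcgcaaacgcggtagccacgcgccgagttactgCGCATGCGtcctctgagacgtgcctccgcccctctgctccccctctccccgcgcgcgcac
The window of Mrpl27 held an ETS match and those of Mrpl36 and Mrps12 a YY1 match each, while Mrpl17 held the NRF1 core beginning 10 bases before its start. Mrps10 and Mrpl45, which lie near opposite ends of the range of changes, held none of the 3.

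Over all 75 windows of the family, the ETS motif was found in 12 (16%), against 3.89% of all 32851 RefSeq promoter windows and 9.73% of the 10018 windows of protein-coding genes with a peak in all 6 libraries. The YY1 motif was also in 12 windows (16%), against 2.75% and 5.11% of those 2 sets. The NRF1 core was in 7 (9.33%), against 1.87% and 4.70%. Of the ETS matches, 10 of 12 lay from 100 bases before the start to the end of the window, as did 9 of 12 YY1 matches and 5 of 8 matches to the NRF1 core. The Sp1 motif GGGCGG was in 52% of the family's windows, below the 70.3% of the open coding windows. The other letters, also searched on both strands, stood close to the open coding windows. The NF-Y box CCAAT was in 40% of the family against 39.2%, and the TATA box TATAAA in 6.67% against 5.52%. The CREB motif TGACGTCA was in 2.67% against 3.57%. The E-box with the letters CACGTG was in 9.33% against 10.7%. The shorter ACGTG, the core of the hypoxia response element that every such E-box contains, was in 25.3% against 27.2%. These shares describe letters in fixed windows and no binding was measured.

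All 78 genes had a consensus peak within 2000 bp of a start site, 75 of them exactly 1 and 3 of them 2. Taking the strongest peak of each gene gave 77 peaks, since Mrpl46 and Mrps11, a divergent pair, share 1. Of the 78 genes, 77 or 78 had a peak in each library (98.7%, with the exact 95% interval starting at 93.1%, or 100%, starting at 95.4%), whereas 54.7% to 56.8% of all protein-coding genes did. The intervals cover counting error only. Mrpl3, which encodes a core protein of the large subunit with a bacterial counterpart, was the only member without a peak in a whole condition. Its summit pileup was 28 and 30 fragments at 21% O2 and 36 and 26 at 1% O2, and no peak was listed in either library at <0.1% O2. A peak list gives no value for a region under its threshold, so an absent peak does not show that the promoter was closed. Mrpl21, another such large-subunit protein, had no peak in 1 normoxic library and 23 fragments in the other, with 26 to 40 at both hypoxia levels. These counts of fragments at Mrpl3 and Mrpl21 are not scaled for depth, which was lower in both normoxic libraries. They therefore give no order of the oxygen levels. The other 76 genes, at 75 peaks, were present in all 6 libraries and are compared below.

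As a check of the label, peaks at start sites were found in all 6 libraries for 7 of 7 glial and neural stem markers (Nes, Sox2, Olig2, Gfap, Vim, S100b and Cd44) and for none of the 4 immune markers. Of 3 epithelial markers only Krt8 had peaks, and of 2 endothelial markers only Pecam1, in 5 libraries. The libraries held 33006 and 36188 peaks in normoxia, 42807 and 41783 at 1% O2, then 43554 and 39348 at <0.1% O2. Genome coverage, read from the smallest background, was 2.16 and 2.36 in normoxia, 2.93 and 2.99 at 1% O2, then 3.35 and 3.18 at <0.1% O2, and depth thus moved with the oxygen level. Pileups were therefore divided by the median pileup of the 28432 shared peaks in the same library, and that relative pileup is 1 for a typical shared peak. In these bulk libraries fewer cells with an open promoter and less opening in each cell cannot be told apart.

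At 21% and 1% O2 most of these promoters were open to a level above that of a typical shared peak, and at <0.1% O2 most were below it. The median relative pileup of the 75 peaks was 1.23 and 1.36 in normoxia, 1.15 and 1.08 at 1% O2, then 0.939 and 0.963 at <0.1% O2. Over all 10294 promoter peaks of protein-coding genes the medians were 1.56 and 1.59, 1.48 and 1.46, and 1.27 and 1.32. Thus the family's median was below that of promoters in each of the 6 libraries. The peaks were close to the start sites. At 74 of the 76 genes (97.4%) the consensus peak held a start site of the gene, against 87.2% of all protein-coding genes tested, and in each library the summits of 64 to 68 of the 75 peaks lay within 200 bp of one. Mean summit pileup over the libraries ranged from 36.5 fragments at Mrps18a to 447 at Mrpl34.

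At <0.1% O2 the promoter peaks of mitochondrial ribosomal proteins were lower than at 21% O2 more often than higher. Of the 75 peaks, 25 (33.3%) fell and 0 rose past both thresholds, an adjusted p under 0.05 in limma with Benjamini-Hochberg adjustment over all 28432 peaks and an absolute log2 change of at least 0.6. Among all promoter peaks 21.3% fell and 3.05% rose by the same rule. Nothing in the labels says that the 2 libraries of a condition came from separate cultures, so these p-values measure only the spread between libraries. With the adjusted p alone, 46 of the 75 fell and 4 rose, against 42.2% and 11.7% of promoter peaks. The median log2 change in summit pileup was -0.39, against -0.24 over all promoter peaks. Changes were below 0 at 63 of 75 peaks, beside 7130 of 10294 promoter peaks. Reweighting the other promoter peaks to the family's deciles of mean fold rank left the share that fell at 20.8%. Both libraries at <0.1% O2 lay below both normoxic ones at 55 of the 75 peaks (73.3%, against 56.2% of promoter peaks) and above both at 7 (9.33% against 20.1%).

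**Figure D1:**
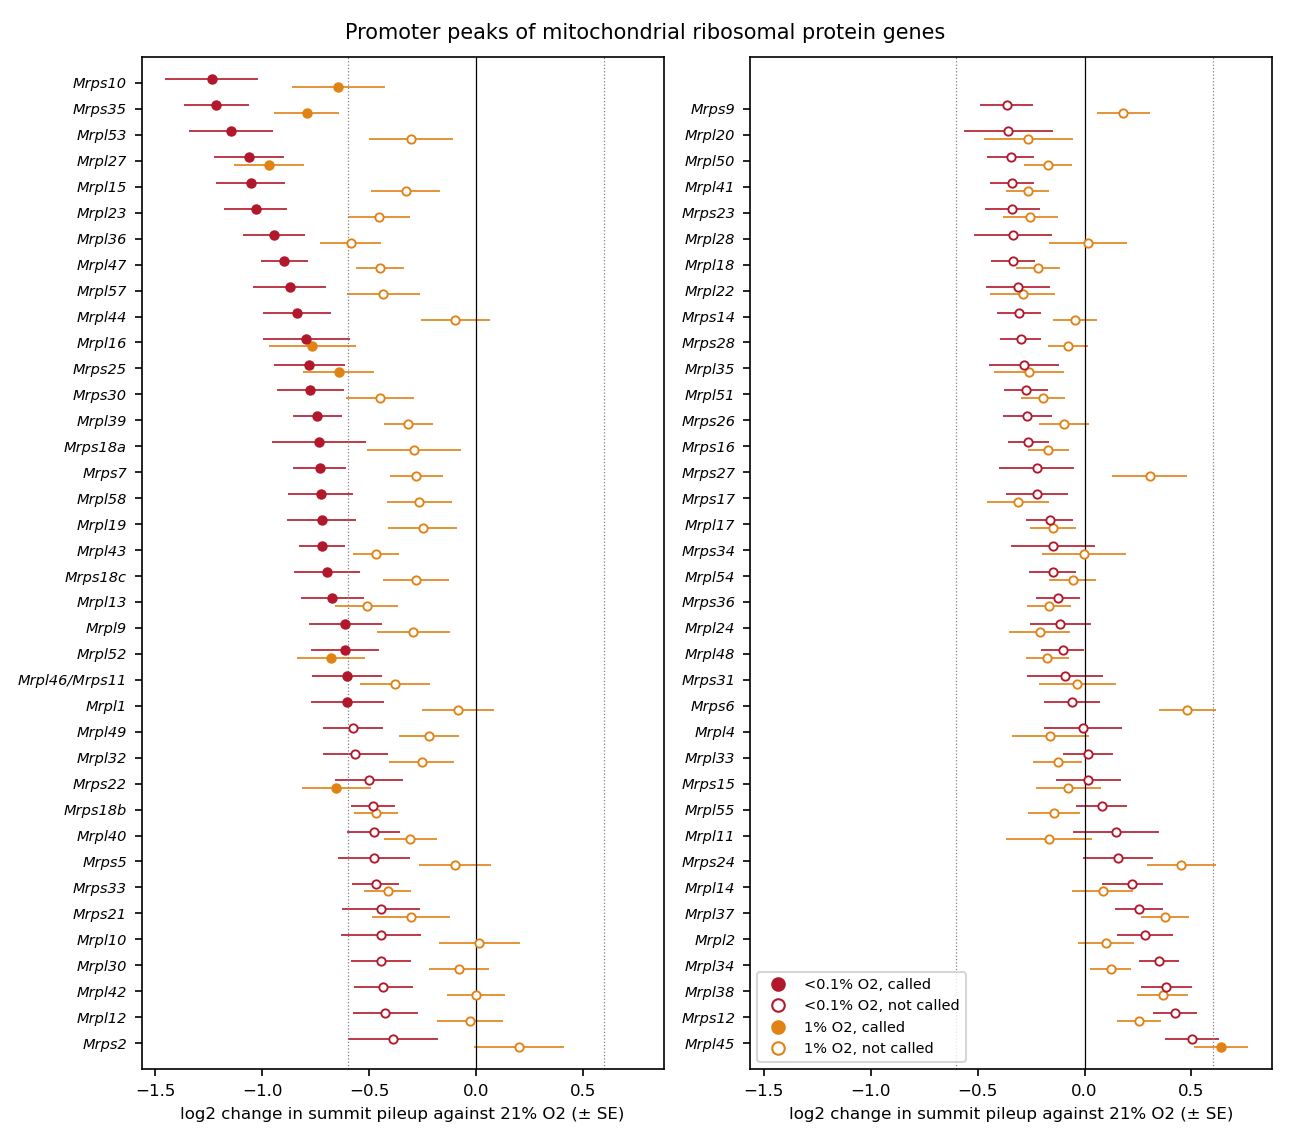
Log2 change in summit pileup against 21% O2 for the 75 promoter peaks present in all 6 libraries, ordered by the change at <0.1% O2 (red) and with 1% O2 beside it (orange), bars being the standard error of the limma fit on 2 libraries per condition. Filled points passed both thresholds and dotted lines mark a change of 0.6 in either direction, so that 25 filled red points lie on the left and none on the right.

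The genes whose peaks fell at <0.1% O2 came from both subunits. By symbol they were 18 of 47 large-subunit peaks and 8 of 29 small-subunit peaks, with the shared peak of Mrpl46 and Mrps11 counted in both, and the median changes were -0.43 and -0.36. Proteins with a bacterial counterpart gave 15 of 46 and proteins found only in mitochondria 11 of 29. The shares were thus 38.3% and 27.6% by subunit and 32.6% and 37.9% by origin, beside 21.3% of all promoter peaks. These subsets were not tested against each other.

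Mrps10, a small-subunit protein with a bacterial counterpart, had the lowest estimate. It was also among the 3 tested members of lowest mean summit pileup. Its relative pileup was 0.869 and 0.638 in the normoxic libraries, 0.556 and 0.408 at 1% O2 and then 0.303 and 0.329 at <0.1% O2, and its peak at chr17:47368810-47369282 spans the start of the gene. Both libraries at <0.1% O2 lay below all 4 others, and both at 1% O2 lay below both normoxic ones. The change at <0.1% O2 was -1.24 ± 0.22 (SE), adjusted p = 1.5e-05, or 0.424 of the normoxic level. For Mrps35, a small-subunit protein found only in mitochondria, the relative pileup was 1.54 and 1.58 in the normoxic libraries, 0.852 and 0.949 at 1% O2 and then 0.626 and 0.720 at <0.1% O2. The 3 conditions did not overlap and followed the oxygen level, with a change of -1.21 ± 0.15 (SE), adjusted p = 3.6e-08. Mrpl53, a mitochondria-specific protein of the large subunit, gave 0.705 and 0.950 in the normoxic libraries, 0.704 and 0.622 at 1% O2 and then 0.374 and 0.366 at <0.1% O2. Here both libraries at <0.1% O2 stood apart from the other 4, of which a normoxic library and one at 1% O2 were nearly level, and the change was -1.15 ± 0.20 (SE), adjusted p = 9.8e-06.

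Mrpl27, whose bacterial counterpart sits near the peptidyl transferase centre, had a relative pileup of 1.23 and 1.36 in the normoxic libraries, 0.630 and 0.694 at 1% O2 and then 0.606 and 0.634 at <0.1% O2. Both hypoxia levels were about equally low, with a change of -1.06 ± 0.16 (SE) at <0.1% O2 and -0.97 ± 0.16 (SE) at 1% O2. Mrpl15, a large-subunit protein with a bacterial counterpart, gave 1.34 and 1.20 in the normoxic libraries, 0.944 and 1.08 at 1% O2 and then 0.697 and 0.537 at <0.1% O2, without overlap between any 2 conditions and with a change of -1.05 ± 0.16 (SE), adjusted p = 1.6e-06. Mrpl23, which lies by the exit of the peptide tunnel, gave 1.51 and 1.66 in the normoxic libraries, 1.15 and 1.16 at 1% O2 and then 0.879 and 0.683 at <0.1% O2, again without overlap and with a change of -1.03 ± 0.15 (SE), adjusted p = 4.1e-07. Mrpl36 (-0.95 ± 0.14 (SE)) and Mrpl47 (-0.90 ± 0.11 (SE)), both with bacterial counterparts, completed the 8 largest falls. The remaining falls were those of Mrpl57, Mrpl44, Mrpl16, Mrps25, Mrps30, Mrpl39, Mrps18a, Mrps7, Mrpl58, Mrpl19, Mrpl43, Mrps18c, Mrpl13, Mrpl9, Mrpl52, the shared peak of Mrpl46 and Mrps11, and Mrpl1, with log2 changes from -0.87 to -0.60. Mrpl1 at -0.60 lay just inside the threshold of change and Mrpl49 at -0.58 just outside it. The call of Mrpl1 was lost without replicate 2 of the normoxic libraries (-0.46) and without replicate 2 at <0.1% O2 (-0.34), while Mrpl49 was called without replicate 2 of the normoxic libraries (-0.61) or replicate 1 at <0.1% O2 (-0.63).

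**Figure D2:**
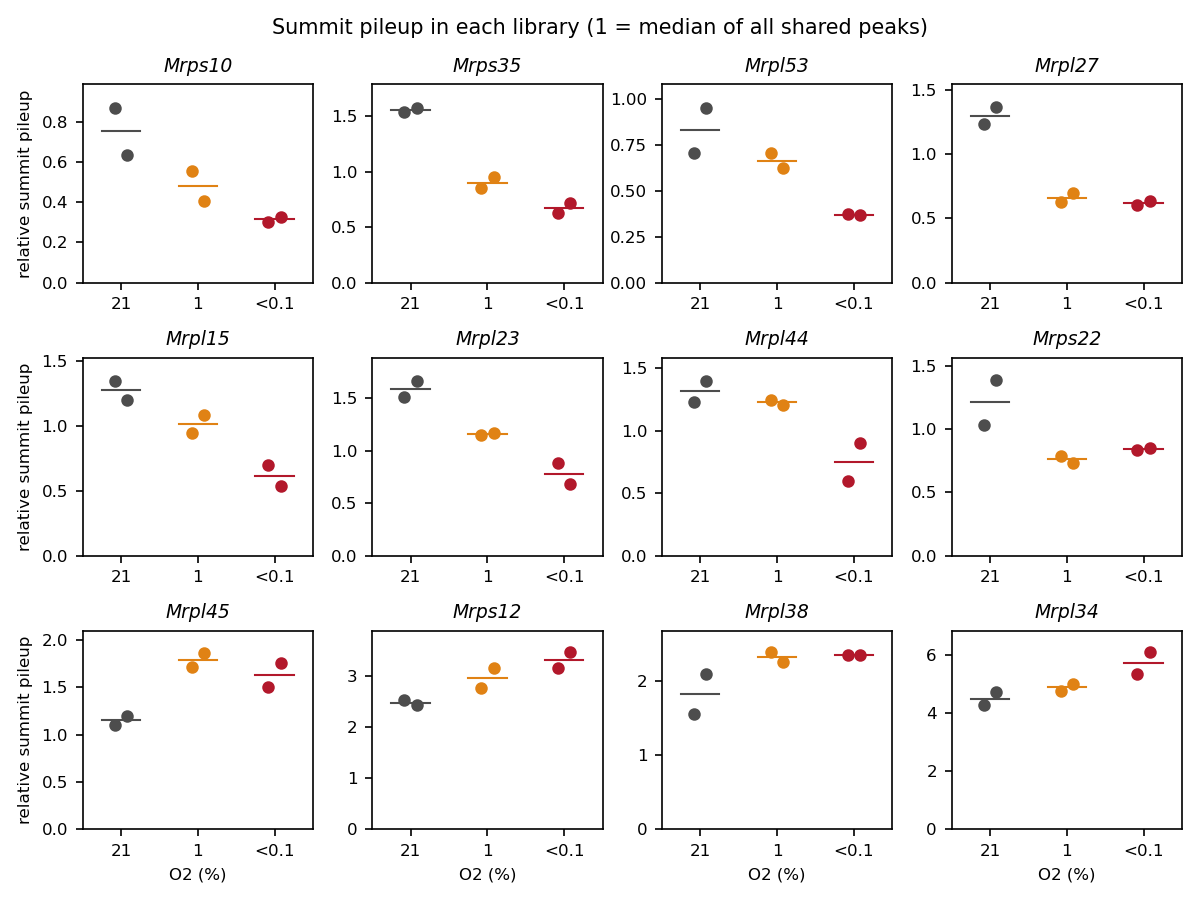
Relative summit pileup in each library (points, 1 being the median of the shared peaks) with the mean of the 2 libraries (bars) at 21%, 1% and <0.1% O2, for 12 genes. In the upper rows the libraries at <0.1% O2 lie below the normoxic ones, and in the lowest row both hypoxia levels lie above the normoxic libraries for Mrpl45, Mrps12, Mrpl38 and Mrpl34.

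At 4 peaks the change was upward by the adjusted p alone, each by less than the threshold of 0.6. Mrpl45, which anchors the ribosome to the inner mitochondrial membrane, gave 1.10 and 1.20 in the normoxic libraries, 1.71 and 1.87 at 1% O2 and then 1.51 and 1.76 at <0.1% O2, so all 4 hypoxic libraries lay above both normoxic ones. Its change was 0.50 ± 0.13 (SE), adjusted p = 0.0013, and it passed the threshold of change only without replicate 1 at <0.1% O2 (0.61). Mrps12, the counterpart of a bacterial protein at the decoding centre, gave 2.52 and 2.42 in the normoxic libraries, 2.76 and 3.16 at 1% O2 and then 3.16 and 3.48 at <0.1% O2, with all hypoxic libraries again above the normoxic ones and a change of 0.42 ± 0.10 (SE), adjusted p = 9.4e-04. Mrpl38, found only in mitochondria, changed by 0.38 ± 0.12 (SE), adjusted p = 0.0076 and Mrpl34, a small protein with a bacterial counterpart, by 0.35 ± 0.09 (SE), adjusted p = 0.0026. The next in order, Mrpl2 (0.28 ± 0.13 (SE)), Mrpl37 (0.26 ± 0.11 (SE)), Mrpl14 (0.22 ± 0.14 (SE)) and Mrps24 (0.16 ± 0.16 (SE)), did not pass the test. In fold over the local background Mrpl45 went the other way (-0.23), and Mrps24 was at -0.01 when pileups were scaled by genome coverage.

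Several members are known for roles beside that of a structural ribosomal protein. Mrpl58, a peptidyl-tRNA hydrolase that rescues stalled ribosomes, had a relative pileup of 1.23 and 1.24 in the normoxic libraries, 1.00 and 1.05 at 1% O2 and then 0.828 and 0.671 at <0.1% O2. Both libraries at <0.1% O2 were the lowest and the change was -0.73 ± 0.15 (SE), adjusted p = 1.6e-04, a call lost without replicate 2 at <0.1% O2 (-0.57) and after a GC correction (-0.53). Mrps30 and Mrps18a, which sit in the large subunit despite their symbols, changed by -0.77 ± 0.16 (SE) and -0.74 ± 0.22 (SE) and both fell. Mrpl12, which also binds the mitochondrial RNA polymerase, changed by -0.42 ± 0.15 (SE) and Mrpl41, which has been linked to apoptosis, by -0.34 ± 0.10 (SE). Both passed the adjusted p (0.022 and 0.0061) but not the threshold of change. Mrps36, which serves as a subunit of the 2-oxoglutarate dehydrogenase complex, was at 3.10 and 3.10 in the normoxic libraries, 2.95 and 2.58 at 1% O2 and then 2.82 and 2.87 at <0.1% O2. Its 2 libraries at <0.1% O2 lay slightly below both normoxic ones, and the change did not pass the test (-0.13 ± 0.10 (SE), adjusted p = 0.32).

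At 1% O2 fewer of these promoters differed from the same 2 normoxic libraries. Of the 75 peaks 7 fell (9.33%) and 1 rose, against 6.36% and 2.97% of promoter peaks, and the median change was -0.21 against -0.07. With the adjusted p alone 19 fell (25.3%) and 6 rose (8%), against 22.0% and 12.6% of promoter peaks. Both libraries at 1% O2 lay below both normoxic ones at 45 of 75 peaks (60%, against 40.9% of promoter peaks). The 7 were Mrpl27 (-0.97 ± 0.16 (SE)), Mrps35 (-0.79 ± 0.15 (SE)), Mrpl16 (-0.77 ± 0.20 (SE)), Mrpl52 (-0.68 ± 0.16 (SE)), Mrps22 (-0.65 ± 0.16 (SE)), Mrps10 (-0.64 ± 0.22 (SE)) and Mrps25 (-0.64 ± 0.17 (SE)). At <0.1% O2, against the same normoxic libraries, Mrpl16, Mrpl52 and Mrps25 were at -0.79, -0.61 and -0.78. Mrps22, a mitochondria-specific protein of the small subunit, gave 1.03 and 1.39 in the normoxic libraries, 0.787 and 0.735 at 1% O2 and then 0.838 and 0.854 at <0.1% O2, with both hypoxia levels below both normoxic libraries. At <0.1% O2 its change of -0.50 ± 0.16 (SE), adjusted p = 0.0099 passed the test but not the threshold of change, which it did pass without replicate 1 of the normoxic libraries (-0.71).

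Mrpl16 and Mrpl52, both of the large subunit, lost their calls at 1% O2 without replicate 1 at that level (-0.57 and -0.44), and Mrpl52 also without replicate 1 of the normoxic libraries (-0.50). The peak that rose at 1% O2 was that of Mrpl45 (0.64 ± 0.13 (SE), adjusted p = 1.3e-04), 1.56 times the normoxic level, and it stayed under the threshold of change without replicate 1 of the normoxic libraries or replicate 2 at 1% O2 (0.58 and 0.58). Mrps6, a small-subunit protein with a bacterial counterpart, gave 1.20 and 1.45 in the normoxic libraries, 1.85 and 1.83 at 1% O2 and then 1.15 and 1.39 at <0.1% O2. Its libraries were highest at 1% O2 (0.48 ± 0.13 (SE), adjusted p = 0.0038), and those at 21% and <0.1% O2 overlapped. Mrps24 (0.45 ± 0.16 (SE)) and Mrpl37 (0.37 ± 0.11 (SE)) also passed the adjusted p upward without reaching the threshold of change. Scaled by genome coverage, which shifts the median change of all shared peaks by 0.17 at 1% O2 and by -0.17 at <0.1% O2, the split at 1% O2 was 2 lower (2.67%) and 3 higher (4%) in place of 7 and 1, and that of promoter peaks 2.38% lower and 7.18% higher.

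The 2 hypoxia levels were also compared with each other, without the normoxic libraries. At <0.1% O2, 3 of the 75 peaks (4%) were lower than at 1% O2 and 0 were higher, against 5.27% and 0.476% of promoter peaks, and the median change was -0.17 against -0.16. Without a GC correction these pileup shares are close to those of promoters in general. With the GC trend removed 3 of the 75 (4%) were lower, beside 1.13% of promoter peaks, with medians of -0.13 and -0.02. Mrpl53 (-0.84 ± 0.20 (SE), adjusted p = 0.0018), Mrpl44 (-0.74 ± 0.16 (SE), adjusted p = 8.0e-04) and Mrpl15 (-0.72 ± 0.16 (SE), adjusted p = 0.0011) made up the 3 called without that correction. Mrpl44, a large-subunit protein related to RNase III, was at 1.23 and 1.40 in the normoxic libraries, 1.25 and 1.20 at 1% O2 and then 0.596 and 0.902 at <0.1% O2, so the libraries at 21% and 1% O2 overlapped and both at <0.1% O2 lay below them. Without replicate 1 at <0.1% O2 Mrpl44 was no longer called (-0.44), and neither was Mrpl15 without replicate 2 there (-0.54). The highest estimates, Mrpl11 (0.31 ± 0.20 (SE)), Mrpl34 (0.23 ± 0.09 (SE)) and Mrpl55 (0.22 ± 0.12 (SE)), did not pass the test and were below 0 when scaled by genome coverage. Leaving out 1 library at a time gave 3 to 7 lower peaks, the 7 (9.33%, beside 4.97% of promoter peaks) without replicate 1 at <0.1% O2 and 5 each without replicate 2 there or replicate 2 at 1% O2. The scaling bore most on this comparison, as 31 of 75 peaks were lower when scaled by genome coverage, along with 33.4% of promoter peaks.

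**Figure D3:**
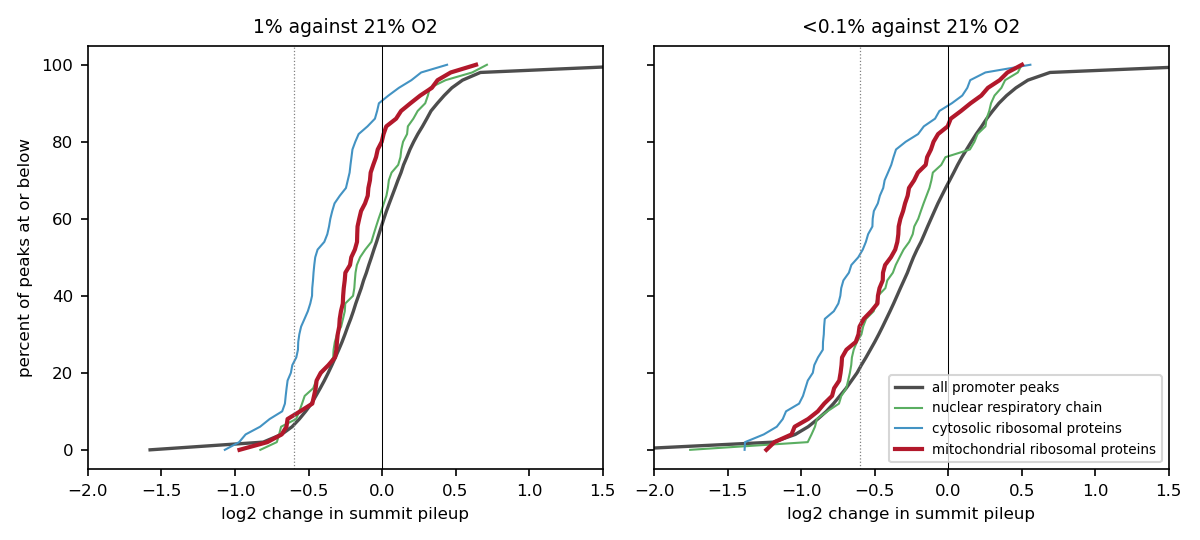
Cumulative percent of peaks by log2 change in summit pileup at 1% (left) and <0.1% O2 (right), both against the same 2 normoxic libraries, for the 75 peaks of mitochondrial ribosomal proteins, all 10294 promoter peaks, cytosolic ribosomal proteins (79 peaks) and the nuclear respiratory chain (97 peaks); the dotted line marks -0.6. At <0.1% O2 the medians are -0.39, -0.24, -0.61 and -0.33 in that order.

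The deposited fold, which sets each summit against its local background, gave a second reading. Folds were ranked within each library as percentiles of the 28432 shared peaks. A call needed a shift of the mean rank by 10 points or more and no overlap between the 2 pairs of libraries compared. An exact permutation test on pairs of libraries has 0.33 as its smallest p, so none is given. The family began high in this order, with median ranks of 74.3 and 74.7 at 21% O2, and stood at 71.8 and 68.5 at 1% O2 and 64.5 and 57.9 at <0.1% O2. For all promoter peaks the medians were 67.0 and 65.8, 64.7 and 65.1, and 59.0 and 60.5. At <0.1% O2 the rank was lower at 30 of 75 peaks (40%) and higher at 3, against 28.7% and 10.6% of promoter peaks, and 28.1% lower after reweighting. At 1% O2 it was lower at 9 (12%) and higher at 2, against 16.3% and 11.1%, so the share that fell there was not above that of promoters. Between the hypoxia levels, a comparison by rank that was added after its values were seen, the rank at <0.1% O2 was lower than at 1% O2 at 26 of 75 peaks (34.7%) and higher at 4 (5.33%), against 22.7% and 8.05% of promoter peaks, and the 26 included Mrpl53, Mrpl44 and Mrpl15.

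The fold holds the same summit pileup in its numerator, so the readings are not independent. Of the 25 peaks called lower by pileup all had a negative rank change, as did 95.8% of the 2191 promoter peaks so called, and 19 (76%) met the rule for the rank as well, beside 70.7%. Mrps10 moved from ranks 56.8 and 49.3 at 21% O2 to 12.1 and 14.8 at <0.1% O2, and Mrps35 from 80.4 and 84.7 to 46.3 and 54.8. Mrpl23 did not follow, with ranks of 63.0 and 55.3 at 21% O2 and 64.5 and 51.5 at <0.1% O2, which overlap. The 3 genes with a higher rank were Mrpl14 (20.97 points), Mrps18b (15.3 points) and Mrpl34 (10.8 points), and of these Mrps18b had a lower pileup (-0.48 ± 0.10 (SE)). Mrpl45 had a higher pileup and a rank lower by 15.4 points. Mrps18b was named here after its values were seen.

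**Figure D4:**
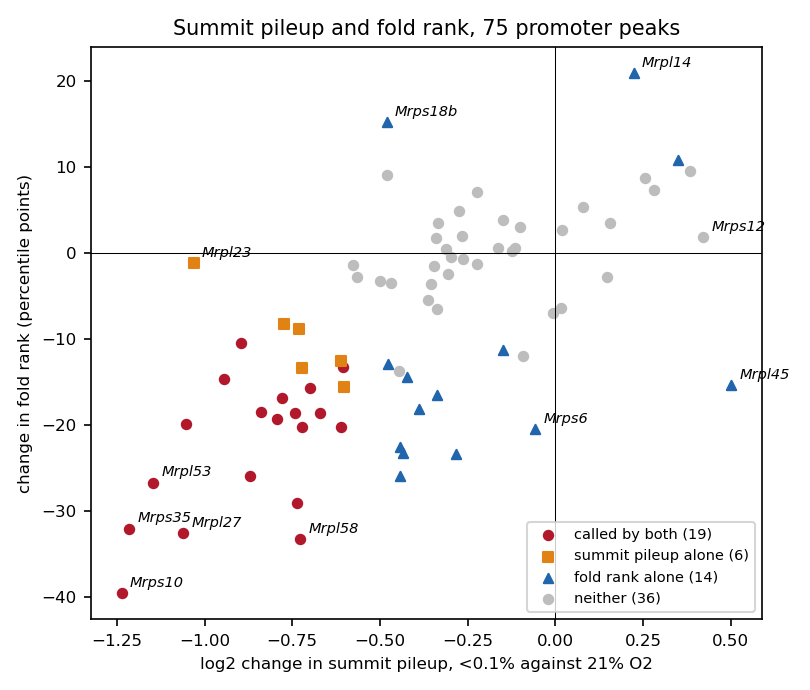
Change in fold rank (percentile points) against log2 change in summit pileup at <0.1% against 21% O2 for the 75 promoter peaks, marked by which of the 2 rules called them. The 25 peaks called lower by pileup all lie below 0 in rank, and Mrpl45 and Mrps18b lie in opposite corners where the readings differ in sign.

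The size of the change did depend on the quantity. When the log2 fold took the place of the summit pileup in the same limma fit, 2 of the 75 peaks were lower at <0.1% O2, those of Mrps10 (-0.77) and Mrpl53 (-0.61), which is 2.67% beside 2.77% of promoter peaks, and the median was -0.12 against -0.07. The local background was also lower at <0.1% O2, while its values at 21% and 1% O2 overlapped. Over the family's peaks its median, divided by genome coverage, was 2.94 and 3.37 in normoxia, 3.07 and 2.77 at 1% O2, then 2.40 and 2.36 at <0.1% O2, and its part in the difference between fold and pileup was not tested. GC content, which ran with the change over all promoter peaks at <0.1% O2 (Pearson r = -0.25 across peaks, which are not independent), did not do so within the family (r = -0.02 over 75 peaks). Within the family the change ran with the width of the consensus peak (r = 0.29) and with mean pileup (r = 0.36), which average or merge the same 6 libraries that give the change. With the GC trend removed 19 of the 75 peaks (25.3%) were lower and 0 higher, against 12.1% and 6.49% of promoter peaks.

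The members shared features that the rule did not use. A divergent protein-coding start lay within 1000 bp upstream of 24 of the 76 genes (31.6%), against 15.9% of the 11624 protein-coding genes tested. Such a start was found at 6 of the 26 genes that fell at <0.1% O2 and at 18 of the other 50, and an ATACseq peak between 2 starts cannot be assigned to either. The peak of Mrps12, which stands among the highest changes, is also that of Sars2, the mitochondrial seryl-tRNA synthetase. Mrpl43, which fell (-0.72 ± 0.11 (SE)), starts opposite Twnk, the helicase of mitochondrial DNA, and Mrpl36, which fell, opposite Ndufs6, a subunit of respiratory complex I. Mrpl49 lies opposite Fau, a gene of a cytosolic ribosomal protein, and Mrpl32 opposite Psma2, a proteasome subunit, and both passed the adjusted p downward without reaching the threshold of change. At 21% O2 the median relative pileup was 1.27 for the 25 peaks that fell and 1.35 for the other 50, and these normoxic values also enter the change. The Sp1 motif was in 8 of 22 windows of genes that fell and 31 of 51 windows of those that did not. ETS was in 4 of 22 and 7 of 51, YY1 in 4 of 22 and 8 of 51, and the NRF1 core in 2 of 22 and 5 of 51.

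Other genes of mitochondrial translation were read from lists of their own, although the peak of Sars2 among them is also that of Mrps12. Of 63 peaks of mitoribosomal proteins with other symbols, translation factors, aminoacyl-tRNA synthetases and ribosome assembly factors, 19 fell at <0.1% O2 (30.2%) and 0 rose, against 21.3% and 3.05% of all promoter peaks, with a median of -0.43 against -0.24. At 1% O2, 9 fell (14.3%, against 6.36%). Among the 5 mitoribosomal proteins with other symbols Aurkaip1 fell (-0.79 ± 0.17 (SE)), and the median was -0.49. Of 15 translation factors 6 fell (40%), which were Slirp (-1.77 ± 0.19 (SE)), a partner of Lrpprc in the handling of mitochondrial mRNA, the elongation factors Tsfm and Gfm1, the ribosome recycling factor Gfm2, the GTPase Guf1, and the initiation factor Mtif3. Of 20 peaks of synthetases and amidotransferase subunits 4 fell (20%, close to the 21.3% of promoter peaks), those of Rars2 (-0.98 ± 0.14 (SE)), Iars2, Fars2 and Hars2. Of 23 assembly factors 8 fell (34.8%), with Mterf3 (-1.05 ± 0.13 (SE)) and Dhx30 (-0.84 ± 0.13 (SE)) at the lower end.

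Regulators of nuclear genes for mitochondrial proteins had peaks of their own. Their list also held Tfam, Tfb2m and Polrmt, which act on mitochondrial DNA. Of the 12 genes of this mixed list, 3 fell at <0.1% O2 (25%, close to the 21.3% of promoter peaks) and 1 rose (8.33%, against 3.05%). The 3 were Gabpb1 (-1.86 ± 0.18 (SE)) and Gabpa (-0.89 ± 0.11 (SE)), the subunits of GABP, and Yy1 (-1.09 ± 0.12 (SE)), whose motifs were searched above. The 1 was Esrra (0.65 ± 0.09 (SE)), an orphan nuclear receptor. Nrf1 (-0.46 ± 0.15 (SE), adjusted p = 0.0093) and Tfam (-0.36 ± 0.10 (SE), adjusted p = 0.0036), the packaging factor of mitochondrial DNA, passed the adjusted p downward without reaching the threshold of change, as did Myc (-0.52 ± 0.10 (SE)) and Tfb2m (-0.41 ± 0.10 (SE)). Polrmt, the mitochondrial RNA polymerase, passed it upward in the same way (0.34 ± 0.13 (SE), adjusted p = 0.031).

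**Figure D5:**
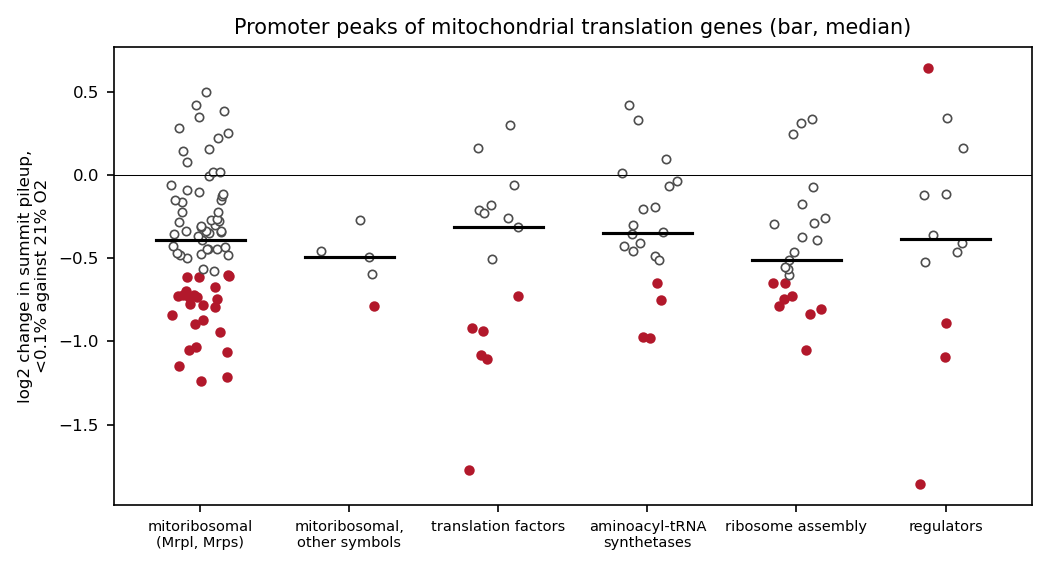
Log2 change in summit pileup at <0.1% against 21% O2 for promoter peaks of mitochondrial ribosomal proteins and 5 other lists, with 1 point per peak or gene, filled where it passed both thresholds, and a bar at the median. Of the filled points all lie below 0 except Esrra among the regulators. The shared peak of Mrps12 and Sars2 is drawn in both of their lists.

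Beside 2 other families the order depended on the reading. Both were taken by symbol, and the respiratory chain list also held ATP synthase genes and assembly factors such as Ndufaf1 and Cox10. The cytosolic list also held related genes such as Rpl3l and Rps27l. Of the cytosolic ribosomal proteins, 40 of 79 peaks (50.6%) fell in pileup at <0.1% O2, beside 33.3% here and 21.3% of promoter peaks, but 7 of 79 (8.86%) were lower and 22 (27.8%) higher in fold rank, against 28.7% and 10.6% of promoter peaks. The nuclear respiratory chain gave 29 of 97 (29.9%) lower in pileup and 27 of 97 (27.8%) lower in fold rank, beside 33.3% and 40% for the mitochondrial ribosomal proteins, and its share in fold rank was close to that of promoter peaks. At 1% O2 the pileup was lower at 19 of 79 cytosolic (24.1%) and 7 of 97 respiratory chain peaks (7.22%), beside 7 of 75 and 6.36% of promoter peaks, with the respiratory chain close to the promoter share. The differences between families were not tested.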

How the data were processed

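ATACseq was measured in 6 libraries of GL261-GFP cells. The authors trimmed reads with Trimmomatic, aligned them to mm10 with Bowtie2 2.2.5, removed duplicates with Picard and called peaks in each library with MACS2 2.1.1.2 at q of 0.001, then removed blacklisted regions. Columns of the deposited peak files hold a ratio (the fold at the summit against the local background) and, as -log10, the p-value and q-value of MACS2. Read counts were not used here, so the DESeq2 test of the study was replaced by limma. The whole-number summit pileup and background of every peak (100%) were recovered from fold and p-value within 0.01 in -log10 p.

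Log2 pileups of the 28432 shared peaks were centred on each library's median and fitted with limma 3.58.1 (lmFit, contrasts.fit, eBayes with trend) on all 6 libraries, with an FDR of 0.05 and an absolute log2 change of 0.6 after the study's methods. Each gene took its promoter peak of highest mean pileup. The genes, lists and tests were chosen with earlier results of these data known. Genes were named by the size of change (8 each way at <0.1% O2, 4 at 1% O2, 3 between the hypoxia levels), the 3 highest and 3 lowest pileups, absence from a library, closeness to the threshold and described roles. Mrps18b, Mrpl43, Mrpl32 and the further genes of the lists were named after their values were seen. Alternatives covered normalization, GC correction, thinning, filters, windows, transcripts, overlaps, peak thresholds, a replicate block and each library left out. The fit was tested on simulated data. Steps outside limma ran with pysam 0.24.0, scipy 1.17.1, pandas 2.3.3 and numpy 2.4.6 under Python 3.11.15, and limma ran in R 4.3.3.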

Additional observations from a re-analysis of the deposited data

Results flagged for a closer look

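At 3 promoters the 2 hypoxia levels differed from each other past both thresholds in the limma fit. The contrast was that of <0.1% against 1% O2 itself, with Benjamini-Hochberg adjustment over all shared peaks. The thresholds were an adjusted p under 0.05 and an absolute log2 change of at least 0.6. The log2 change in summit pileup was -0.84 at Mrpl53, -0.74 at Mrpl44 and -0.72 at Mrpl15, and both libraries at <0.1% O2 lay below both at 1% O2 at each of them. Of all promoter peaks 5.27% were lower by the same rule, against 3 of the 75. By the adjusted p alone 18 of the 75 were lower (24%, beside 21.3% of promoter peaks). In fold over the local background, with the same fit, none of Mrpl53, Mrpl44 and Mrpl15 was called, and 0.369% of all promoter peaks were lower. By the rank of the fold within each library these 3 were all lower, by 29.4, 19.3 and 20.6 percentile points in that order. So were 87.3% of the 542 promoter peaks lower by pileup.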

How the results depend on the processing

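Of the alternative values of counts and medians, 208 stayed close to those reported (a count within 1.5 times, a median within 0.072, the SD between replicates of the members' median log2 level) and 53 moved. At <0.1% O2 against 21% O2 the median log2 change was -0.55 when scaled by genome coverage, -0.30 after the GC correction, with or without the replicate block, and -0.12 in fold, where 2 peaks (Mrps10 and Mrpl53) were lower. Fold in place of pileup, in the same limma fit, gave 0 lower and 0 higher at 1% O2 (median -0.043), beside 0.447% and 0.437% of promoter peaks. Between the hypoxia levels it gave 0 lower (median -0.088), beside 0.369% of promoter peaks. Limma on pileups gave 7, 1 and 3, beside 6.36%, 2.97% and 5.27% of promoter peaks. Coverage scaling gave 2 lower and 3 higher at 1% O2 (median -0.042, with 2.38% and 7.18% of promoter peaks and a median of 0.095) and 31 lower between the hypoxia levels (median -0.50). Between the hypoxia levels 6 peaks (8%) were lower after quantile normalization and 5 (6.67%) with pileups thinned to equal coverage, beside 6.90% and 6.05% of promoter peaks. The FDR alone gave 46 lower and 4 higher at <0.1% O2, 19 lower and 6 higher at 1% O2 and 18 lower (24%, close to the 21.3% of promoter peaks) between the levels. Start sites of all transcripts gave 1 higher at <0.1% O2, 2 higher at 1% O2 and 1 higher between the levels. With the start sites used elsewhere, 3.05%, 2.97% and 0.476% of promoter peaks were higher in these comparisons. The promoter shares with all transcripts are not given here.

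Leaving out each library in turn gave a median log2 change of -0.45 to -0.32 at <0.1% O2 and of -0.25 to -0.14 at 1% O2. Between the hypoxia levels it was -0.21 to -0.15. A lone library left in a group was assumed to vary like the others.

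For fold ranks, ranking within the whole list gave 18 lower (24%, beside 18.7% of promoter peaks) and 6 higher (8%, beside 14.7%) at <0.1% O2 and 3 lower (4%, beside 6.04%) and 7 higher (9.33%, beside 18.2%) at 1% O2. Ranking the pileup gave 15 lower (20%, beside 15.6%) and 5 higher (6.67%, beside 10.9%) at 1% O2. A change of 5 points gave 5 higher (6.67%, beside 16.3%) at <0.1% O2 and 15 lower (20%, beside 24.8%) and 4 higher (5.33%, beside 17.0%) at 1% O2, and the GC correction gave 7 higher (9.33%, beside 16.3%) at <0.1% O2. Between the hypoxia levels these alternatives were chosen after seeing the data. There 1 was higher when ranked within the whole list (1.33%, beside 4.68% of promoter peaks) and 0 when the pileup was ranked (beside 1.78%). After the GC correction 7 were higher there (9.33%, beside 13.6%). With each library left out, 24 to 30 were lower between the levels (32% to 40%, beside 24.7% to 26.6% of promoter peaks). At <0.1% O2, 27 to 34 were then lower (36% to 45.3%, beside 30.5% to 33.1%) and 4 to 7 higher (5.33% to 9.33%, beside 11.2% to 14.4%). At 1% O2, 8 to 15 were lower (10.7% to 20%, beside 18.0% to 22.0%) and 4 to 11 higher (5.33% to 14.7%, beside 13.6% to 15.1%). A single library then stands for its group, so these counts rest on fewer conditions than the reported ones.

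Of the changes of single genes, 487 kept direction and call, 35 lost the call, 9 gained it and 15 turned sign, the last all from changes that had not passed both thresholds. In fold these were Mrpl45 (-0.23), Mrpl17 (0.15), Mrps36 (0.021) and Mrpl41 (0.046) at <0.1% O2 and Mrps6 (-0.079) at 1% O2. Scaled by coverage they were Mrps24 (-0.0086) at <0.1% O2 and Mrpl11 (-0.018), Mrpl34 (-0.11) and Mrpl55 (-0.11) between the hypoxia levels. After the GC correction, with or without the block, Mrpl17 was at 0.13 and Mrps16 at 0.0028. With each library left out, Mrps24 ranged from -0.017 to 0.33 and Mrpl17 from -0.39 to 0.060 at <0.1% O2. The causes were not tested.

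The replicate numbers pair the libraries by number alone. Same-numbered libraries did not deviate together (correlations of -0.051, -0.013 and 0.0079). The replicate block left 25, 7 and 3 of the members lower at <0.1% O2, at 1% O2 and between the levels. With 2 libraries a group, and with pileups only of regions that passed the q threshold of peak calling, a smaller change could go undetected, and a region without a peak has no value.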
